A study of Mus musculus with 24 samples.

Results

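The Bcl2 family genes measured here were Bcl2, Bcl2l1, Mcl1 and Bcl2l2, which encode survival proteins, Bak1 and Bok, which encode pore-forming effectors, and Bid, Bad and Bcl2l11, which encode BH3-only death proteins. They were taken by name, as every row of the deposited signal table whose target symbol matched 1 of these 9 genes. The array held 28902 gene names once target names had been matched to RefSeq symbols and synonyms. The 9 genes were read by 21 of 45281 probes, and all 9 had at least 1 probe above background in 2 or more arrays and entered the test. In the mitochondrial route to cell death, survival proteins of this family hold the effectors in check, BH3-only proteins relieve that hold or engage the effectors directly, and the effectors then open the outer mitochondrial membrane so that cytochrome c leaves and caspases are activated. In epidermis these proteins set how readily keratinocytes die, and damage or failed mitosis is known to act through them.

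The samples were mouse epidermis, peeled from the dermis after overnight trypsin, of a mixed B6-129Sv background. Mutants carried 2 floxed copies of Mad2l1 (Mad2f/f), which encodes a spindle assembly checkpoint protein, and a Cre driven by the keratin 14 promoter of basal keratinocytes, so that cells outside that lineage in the peel kept the gene. There were 2 mutant arrays each at postnatal days 3, 6, 13 and 20 (P3, P6, P13 and P20), against 4, 2, 2 and 3 Cre-negative controls. Mutants are annotated as nude at P6 and all later ages and as lacking a phenotype at P3. Adult skin gave 1 Mad2f/f mutant, 2 mutants that also carried a floxed p53 copy (p53f/+) and 1 control, which was Cre-positive with 1 floxed Mad2l1 copy and so differed in kind from the younger controls. A further P3 array carried a mutant genotype beside a control label. It was kept out of every comparison.

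The 24 arrays lay on 8 chips, and each age had chips of its own except that P20 and adult arrays shared 1. The 75th percentile of signal lay 21.2 to 182 units above background, and the lowest 3 values belonged to P20 mutant 2 and P20 controls 2 and 3, which shared chip G. The deposited signals of chips G and H had backgrounds near 0 and lowest values from -77.8 to -33.1. On the other chips backgrounds ran from 81.3 to 181 and no signal was negative. Both P20 and the adult p53f/+ mutants mixed arrays of these kinds, and the reason for the difference was not tested. Mad2l1 was lower in mutants at every age, by at least 2.63-fold at P3 and at least 8.36-fold at P13, where mutants were not above background. Krt5, Krt14, Krt1 and Krt10, which mark keratinocytes, were above background in every array, and the leukocyte marker Ptprc in none. Other leukocyte markers did give signal. A list of 6 Langerhans cell markers averaged 10.4 to 10.6 in P6 mutants. A T and NK cell list averaged 8.71 to 9.17 in P20 controls. Col1a1, a fibroblast marker, was above background in both P6 and both P13 controls and in both P13 mutants, but in neither P6 mutant. Its mean was 10.4 in P13 mutants and 13.3 in P13 controls.

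Bok and Bid were the 2 members that rose at P13, and for that reason the 250 bases before the start that RefSeq's promoter table gives each gene are shown. The sequences are RefSeq's, on GRCm38.p6, read 5′ to 3′ on the strand of the gene. Capitals mark a GC box (GGGCGG on either strand).
Bok: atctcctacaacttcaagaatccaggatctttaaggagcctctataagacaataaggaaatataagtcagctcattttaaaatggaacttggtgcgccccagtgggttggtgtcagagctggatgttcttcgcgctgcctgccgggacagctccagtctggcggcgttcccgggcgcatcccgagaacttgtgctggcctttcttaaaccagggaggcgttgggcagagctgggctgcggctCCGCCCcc
Bid: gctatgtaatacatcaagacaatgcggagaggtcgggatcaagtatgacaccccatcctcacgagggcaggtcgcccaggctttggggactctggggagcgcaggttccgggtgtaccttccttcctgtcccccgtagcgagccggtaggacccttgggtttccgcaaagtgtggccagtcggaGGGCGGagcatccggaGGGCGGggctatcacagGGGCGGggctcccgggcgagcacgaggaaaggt
The start used for Bok is the outer edge of the gene. The start used for Bid lies 238 bases inside the annotated gene, whose outer edge is at 120917062, so that only 12 bases of the Bid stretch lie outside the gene. The Bok stretch is chr1:93685325-93685574 on the plus strand and the Bid stretch is chr6:120916825-120917074 on the minus strand. Bok holds 1 GC box, which begins 8 bases before the start, and Bid holds 3, which begin 66, 50 and 33 bases before the start used for it. A GC box occurs in 32.7% of the 32851 promoter stretches of this length. Of the other motifs searched on both strands, the CCAAT box occurs in 33.8% of promoters and the TATAAA form of the TATA box in 12.4%. The AP-1 motif TGANTCA occurs in 6.75% of promoters, and the E-box CACGTG, which MYC proteins can bind, occurs in 6.02%. None of these letters is in the Bok or the Bid stretch. The stretches are 55.2% (Bok) and 63.6% (Bid) G or C, against a median of 52.4%.

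Bok, an effector related to Bak1 and Bax, had the largest mutant to control difference of the 9 members at any single age. At P13 its brighter probe read 11.92 and 11.48 (log2 normalized intensity) in the mutants against 9.99 and 9.97 in the controls. The mutants lay above both controls by more than either group's own spread. The difference was 1.72 ± 0.42 (log2, SE), or 3.29-fold, with an adjusted p of 0.00800 in limma's moderated test over 14275 genes. A change in the share of a cell type and a change in RNA per cell cannot be told apart in these bulk samples. Of the 9 members, 2 passed at P13, both upward, where 20.5% of all genes passed and 9.95% passed upward.

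At P6 the same probe read 12.12 and 11.93 in mutants against 10.95 and 10.96 in controls. The groups did not overlap, and the difference of 1.07 ± 0.42 (log2, SE) missed the threshold (limma, adjusted p = 0.0802). With chip as a block it passed (limma adjusted p = 0.0224 fixed, 0.0220 random). Of 42 alternatives for Bok at P6, 9 passed. At P20 mutants read 12.29 and 10.96 and controls 11.45, 10.52 and 10.05, so that the groups overlapped (difference 0.95 ± 0.38, limma adjusted p = 0.138). Within each P20 chip the Bok mutant lay above the controls, by 0.84 on chip F and 0.67 on chip G, and with chip as a block Bok passed at P20 (0.74, limma adjusted p = 0.0440 fixed, and 0.81, 0.0499 random). Without the dim P20 mutant 2 the P20 difference was 1.62, and without P20 control 1 it was 1.34 (limma adjusted p = 0.0128). Over 43 alternatives the Bok difference at P20 ran from 0.28 to 1.62, and only 4 passed. At P3 there was no such gap. Mutants read 10.83 and 10.28 and controls 10.66, 10.60, 10.90 and 11.03 (difference -0.24 ± 0.36, limma adjusted p = 1.00). Averaged over P6, P13 and P20, Bok was 1.25 ± 0.24 (log2, SE) higher in mutants (limma adjusted p = 0.000684), a comparison in which 2 members passed, both upward, and 32.6% of all genes passed, 13.7% upward. That mean exceeded the P3 effect by 1.49 ± 0.43 for Bok (limma adjusted p = 0.0519), and no member passed this test, which 6.42% of genes passed. With chip as a block Bok passed it (1.34, limma adjusted p = 0.00876 fixed, and 1.40, 0.00807 random). Its effect at P13 exceeded that at P3 by 1.96 ± 0.56 (limma adjusted p = 0.0414), where 8% of genes passed such a test, 4.11% upward. In the pairs P6 and P3, P6 and P13, P6 and P20, and P13 and P20 no member's effect differed past the threshold, while 10.9%, 9.99%, 8.8% and 7.62% of all genes passed. With chip as a fixed block Bok passed between P6 and P3 (limma adjusted p = 0.0455) and Bid between P20 and P13 (0.0299).

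**Figure D1:**
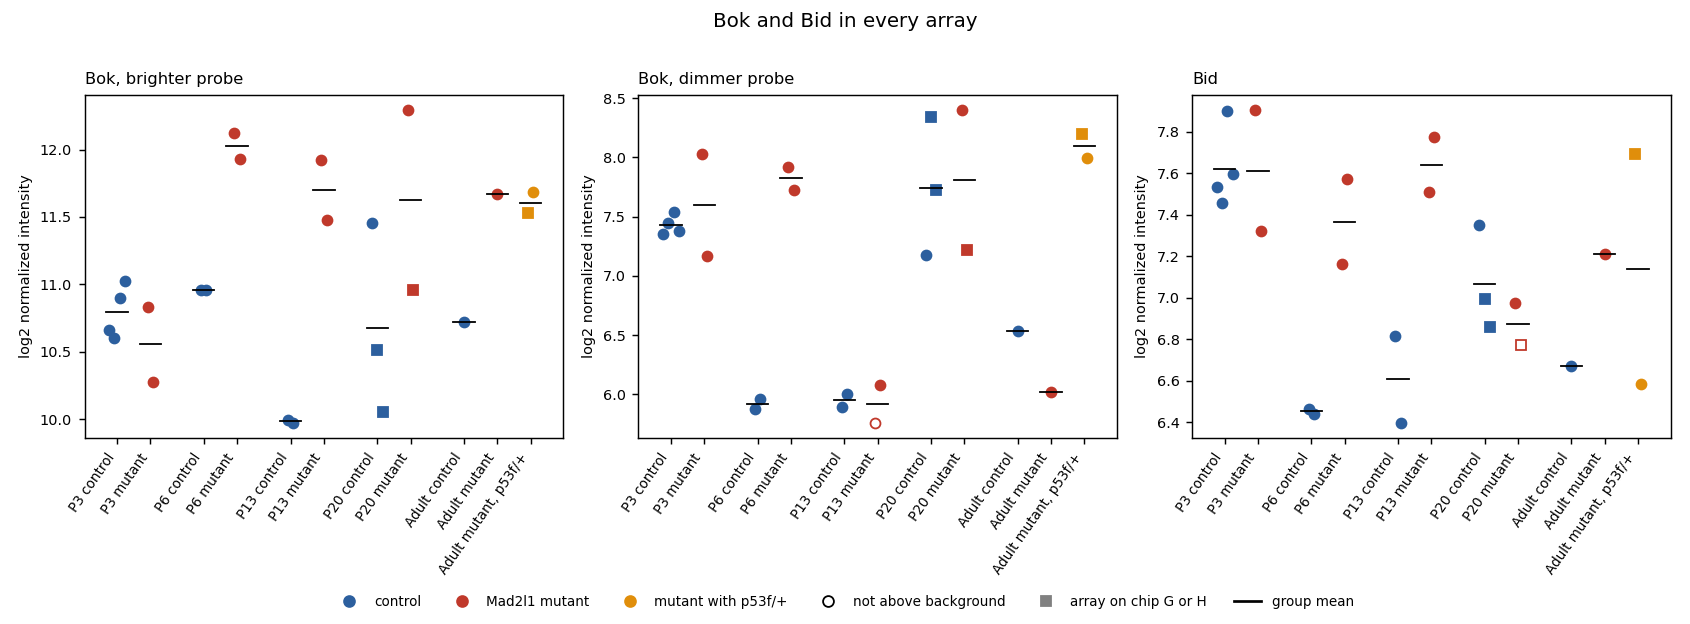
Log2 normalized intensity (vertical axis) of the 2 Bok probes and of Bid in each array, by age and genotype, with a bar at the group mean. At P13 both mutants lie above both controls for the brighter Bok probe and for Bid, while the dimmer Bok probe does so at P6 and not at P13.

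The dimmer Bok probe gave another picture. At P6 it read 7.92 and 7.72 in mutants against 5.88 and 5.96 in controls, a difference of 1.90 with an adjusted p of 0.00205 over 20542 probes in limma, where 20.9% of probes passed. Fitted probe by probe, Bok's brighter probe passed at P13 (adjusted p = 0.00880), where 18.9% of probes passed. The dimmer probe at P13 read 5.76 and 6.08 in mutants, the first of them not above background, against 5.90 and 6.01 in controls (difference -0.03, limma adjusted p = 0.974). So the P13 rise rested on 1 of the 2 probes, and the mean of both at P13 was 0.84 higher in mutants (limma adjusted p = 0.0823). The dimmer probe differed by only 0.06 at P20 (limma adjusted p = 0.947), so the P20 lean too rested on the brighter probe. Averaged over P6, P13 and P20 the dimmer probe was 0.64 higher in mutants (limma adjusted p = 0.0332). Which transcripts each probe reads was not analysed here. The P13 call on the brighter probe was also lost without P13 mutant 1 (1.49, adjusted p = 0.0877) or without P13 control 2 (1.71, adjusted p = 0.0585), both in limma.

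Bid, a BH3-only protein that caspase-8 cleaves to join death receptors to mitochondria, was the other member that rose. At P13 it read 7.51 and 7.77 in mutants against 6.81 and 6.40 in controls. The groups did not overlap. The difference was 1.03 ± 0.33 (log2, SE), or 2.05-fold, with a limma adjusted p of 0.0357. This call was lost when any 1 of the 4 P13 arrays was left out, with differences from 0.83 to 1.24 and adjusted p from 0.0622 to 0.265. At P6 mutants read 7.16 and 7.57 and controls 6.46 and 6.44 (difference 0.91 ± 0.33, limma adjusted p = 0.0578, and 0.0417 with chip as a random block). Of 42 alternatives for Bid at P6, 10 passed. At P3 the groups overlapped, with mutants at 7.90 and 7.32 and controls from 7.46 to 7.90. At P20 they overlapped too, with mutants at 6.97 and 6.77 and controls from 6.86 to 7.35 (difference -0.19 ± 0.30, limma adjusted p = 0.765). The mean over P6, P13 and P20 was 0.58 ± 0.19 higher in mutants (limma adjusted p = 0.0231). The second Bid probe was above background in 1 array.

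Markers of several cell types differed at the same ages. At P13 all 11 tested genes of a hair shaft and root sheath list fell, and the list's mean level was 5.95 to 6.59 in mutants against 14.5 to 14.6 in controls. Hair markers were already lower at P3, where 7 of the 11 fell. The list averaged 9.98 to 10.3 in P3 mutants against 13.2 to 13.9 in P3 controls. So P3, the age set against the later ones, was not free of such differences. Of 10 myeloid markers, 5 rose at P13, with list means of 7.81 to 8.03 in mutants against 6.38 to 6.86 in controls. The fibroblast list averaged 9.72 to 9.79 in P13 mutants and 9.76 to 10.2 in P13 controls, and the ranges overlapped. Its genes did not all move together, since 3 of 19 rose at P13 and 2 fell. At P6, by contrast, 18 of 19 fibroblast genes fell, and the list averaged 5.89 to 5.93 in mutants against 10.6 to 10.9 in controls. With the fibroblast mean as a covariate Bok at P13 was 1.80 higher (limma adjusted p = 0.00602) and Bid 1.08 higher (0.0296), but the mean over P6, P13 and P20 no longer passed for Bok (1.97, adjusted p = 0.0721) or Bid (1.02, 0.219). In the P6 arrays this covariate nearly coincided with genotype, so the fit cannot separate them there. Each group also had its own mean, so the covariate's slope was set only by differences between arrays of the same group. The fit therefore cannot show at P13 or any other age whether Bok or Bid differed apart from fibroblast content. The part of hair, myeloid cells, keratinocytes and melanocytes in the result was not tested.

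By root mean square difference of centred log2 values over the 24 arrays, the genes most like Bok were Tuba1c (0.31) and Rps6ka4 (0.33), against a median of 0.92 over all genes. Those most like Bid were Selenos (0.30) and Tab2 (0.32), against a median of 0.75. These values describe likeness over arrays that share chips and ages.

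**Figure D2:**
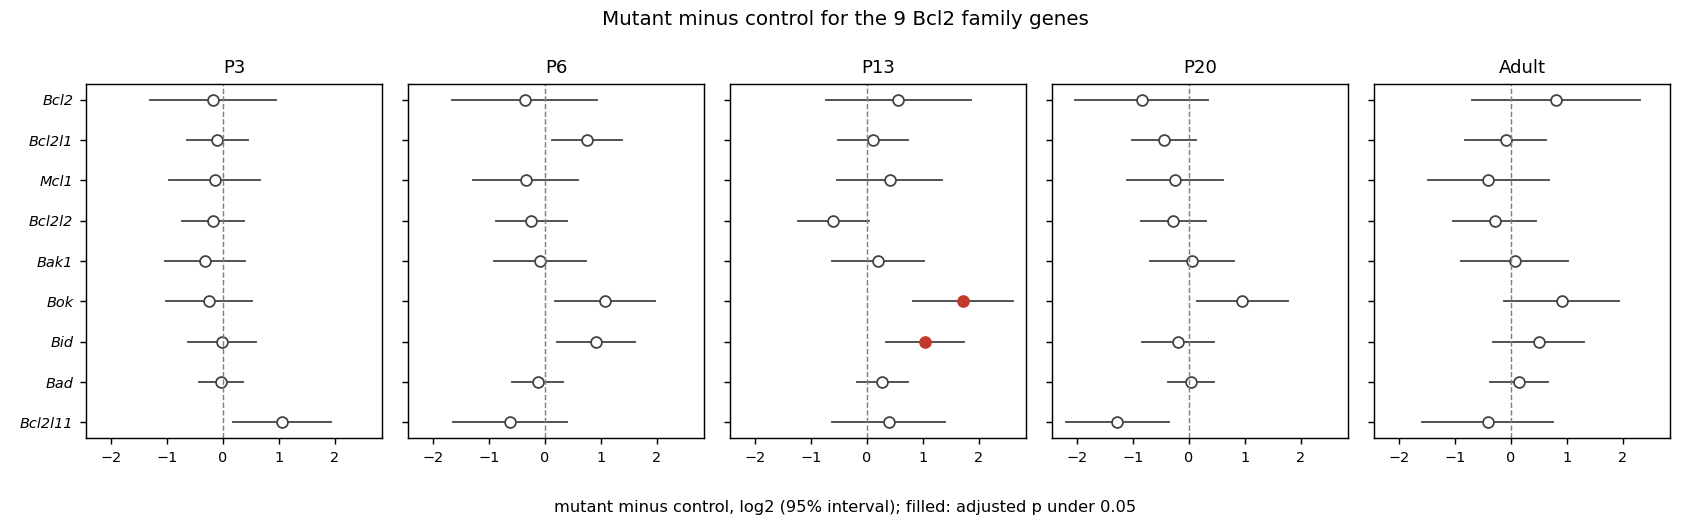
Mutant minus control difference (log2, horizontal axis) with its 95% interval for the 9 genes at each age, filled where the adjusted p was under 0.05. Only Bok and Bid at P13 are filled.

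The BH3-only gene Bcl2l11, which encodes Bim, differed in direction between ages without passing at any one. At P3 mutants read 7.21 and 7.51 and controls 5.76, 5.88, 6.88 and 6.70, the first 2 of them not above background. Both mutants lay above every control, and the difference of 1.06 ± 0.41 (log2, SE) missed the threshold (limma adjusted p = 0.415). At P3 none of the 9 members passed in limma, where 1.92% of genes did, and Bcl2l11 was the 1 member with an unadjusted p under 0.05. It was also the 1 member whose P3 groups did not overlap, against 22.7% of all genes. At P20 the order was turned. Mutants read 6.09 and 6.73, the second not above background, against 6.77, 7.92 and 8.37 in controls (difference -1.28 ± 0.44, limma adjusted p = 0.0763). With chip as a random block it passed (-1.16, limma adjusted p = 0.0308). Chip F, with 1 array on each side, gave -0.68, and chip G, with 1 mutant not above background and 2 controls, gave a limma adjusted p of 0.0457, each lone array being assumed to vary like the other groups. The P20 effect lay 2.33 below the P3 effect on the log2 scale (-2.33 ± 0.60, limma adjusted p = 0.0421), where 3.5% of genes passed such a test, 1.37% downward. At P6 mutants read 6.44 and 6.57 against 7.20 and 7.05, and at P13 they read 8.33 and 7.44 against 7.49 and 7.51. A second Bcl2l11 probe was above background in 5 arrays and its remaining 2 probes in none. On that second probe the difference was -0.22 at P3 and -0.12 at P20, with neither mutants nor controls above background at either age. So the turn between P3 and P20 rested on 1 probe.

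Bad, a BH3-only protein governed by growth factor signals, was the steadiest member. Its 24 values ran from 8.67 to 9.42, and its 5 differences between mutants and controls ran from -0.13 to 0.28. At P13, where the difference was largest, its 95% interval was -0.17 to 0.73. Bak1, the effector anchored in the mitochondrial membrane, was above background in 3 arrays, namely both P6 controls and the adult control, and its values between 4.63 and 5.90 set no difference. No fold is given for it.

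**Figure D3:**
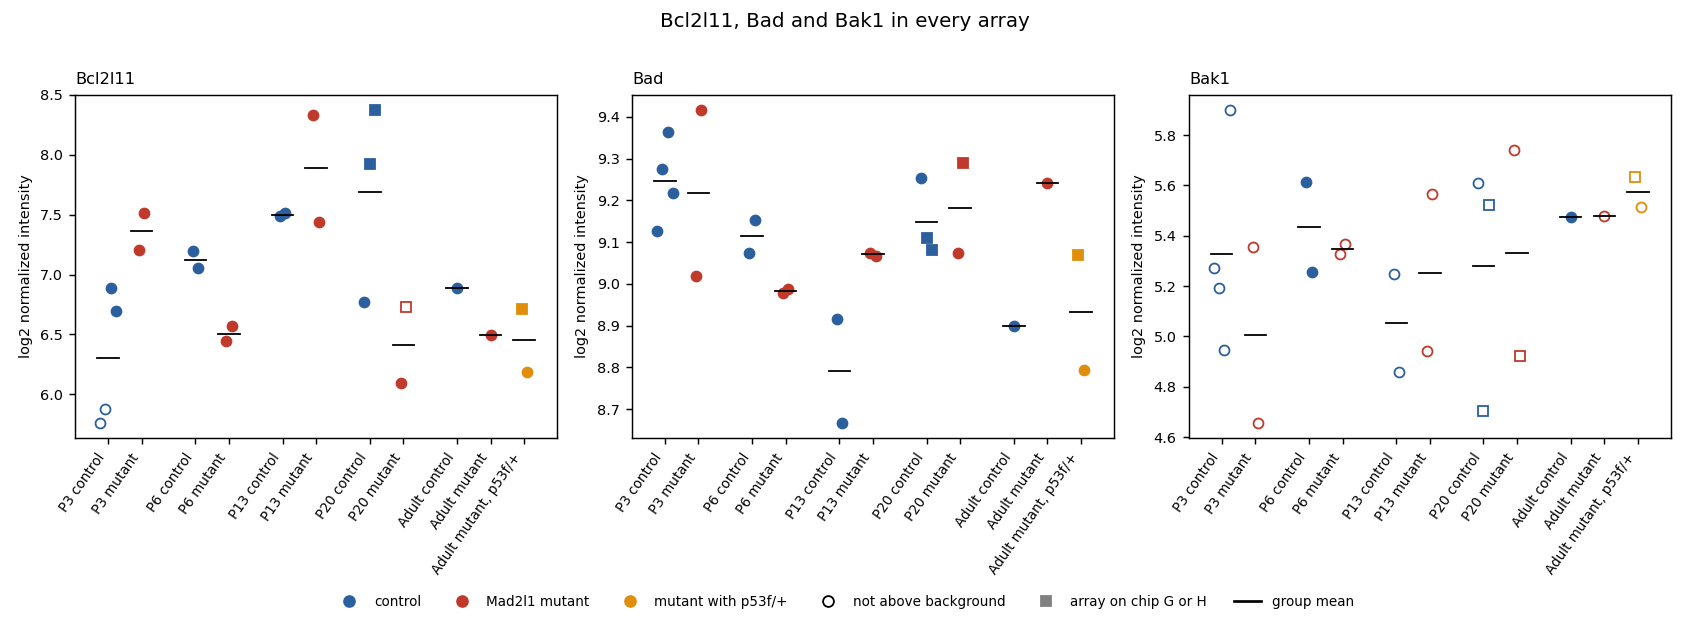
Log2 normalized intensity (vertical axis) of Bcl2l11, Bad and Bak1 in each array by age and genotype, with open symbols where the probe was not above background. Bcl2l11 lies above controls in P3 mutants and below them in P20 mutants, Bad stays between 8.67 and 9.42, and Bak1 is open in most arrays.

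Of the survival members none passed in any mutant to control comparison from P3 to adult in the fit to all arrays with no chip term. At P6 no member passed, where 22.6% of genes did, and 8 of 9 had groups that did not overlap, against 74.3% of all genes. At P13 the count was 6 of 9 against 72.6%, and at P20 it was 2 of 9 against 24.3%. These shares lie near the background. Bcl2l1, which encodes Bcl-xL, came closest. At P6 it read 7.83 and 7.95 in mutants against 7.29 and 6.98 in controls, a difference of 0.76 ± 0.29 (log2, SE; limma adjusted p = 0.0778). Of its other 2 probes, 1 was at least 1.61-fold higher at P6, with controls not above background (limma adjusted p = 0.177), and the other was 0.94 higher (0.268). At P20 Bcl2l1 leaned the other way, with mutants at 8.10 and 7.83 and controls at 8.26, 8.45 and 8.55 (difference -0.45 ± 0.27, limma adjusted p = 0.341).

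Mcl1, a short-lived survival protein that keratinocytes need, read 11.88 and 11.46 in P13 mutants against 11.28 and 11.24 in P13 controls (difference 0.41 ± 0.44, limma adjusted p = 0.589). At P6 it read 11.27 and 11.39 against 11.73 and 11.61. Both pairs of groups were apart in opposite directions, and neither difference passed. Bcl2l2, which encodes Bcl-w, read 10.08 and 9.87 in P13 mutants against 10.58 and 10.57 in controls (difference -0.60 ± 0.30, limma adjusted p = 0.185). The P13 arrays all lay on chip E, so a chip term left this difference at -0.60 and changed the estimate of spread. With chip as a block Bcl2l2 passed at P13 (adjusted p = 0.0308 fixed and 0.0457 random, limma). Its second detected probe differed by 0.00 at P13 (limma adjusted p = 0.999). Bcl2, the founding survival gene, was not above background in any P3 array. At P20 it was above background in 1 of 3 controls, at 7.61, and in neither mutant, at 5.67 and 4.95, so that no fold is given (limma adjusted p = 0.402). That control and P20 mutant 1 were the only P20 arrays on chip F, 1 against 1. Without P20 control 2 Bcl2 passed (limma adjusted p = 0.0367), again lower in mutants that were not above background. The second Bcl2 probe read 5.32 and 5.52 in P6 mutants, not above background, and 6.83 and 6.79 in controls, at least 2.26-fold higher in controls (limma adjusted p = 0.0893). At P20 10% of genes passed and none of the 9 members did.

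**Figure D4:**
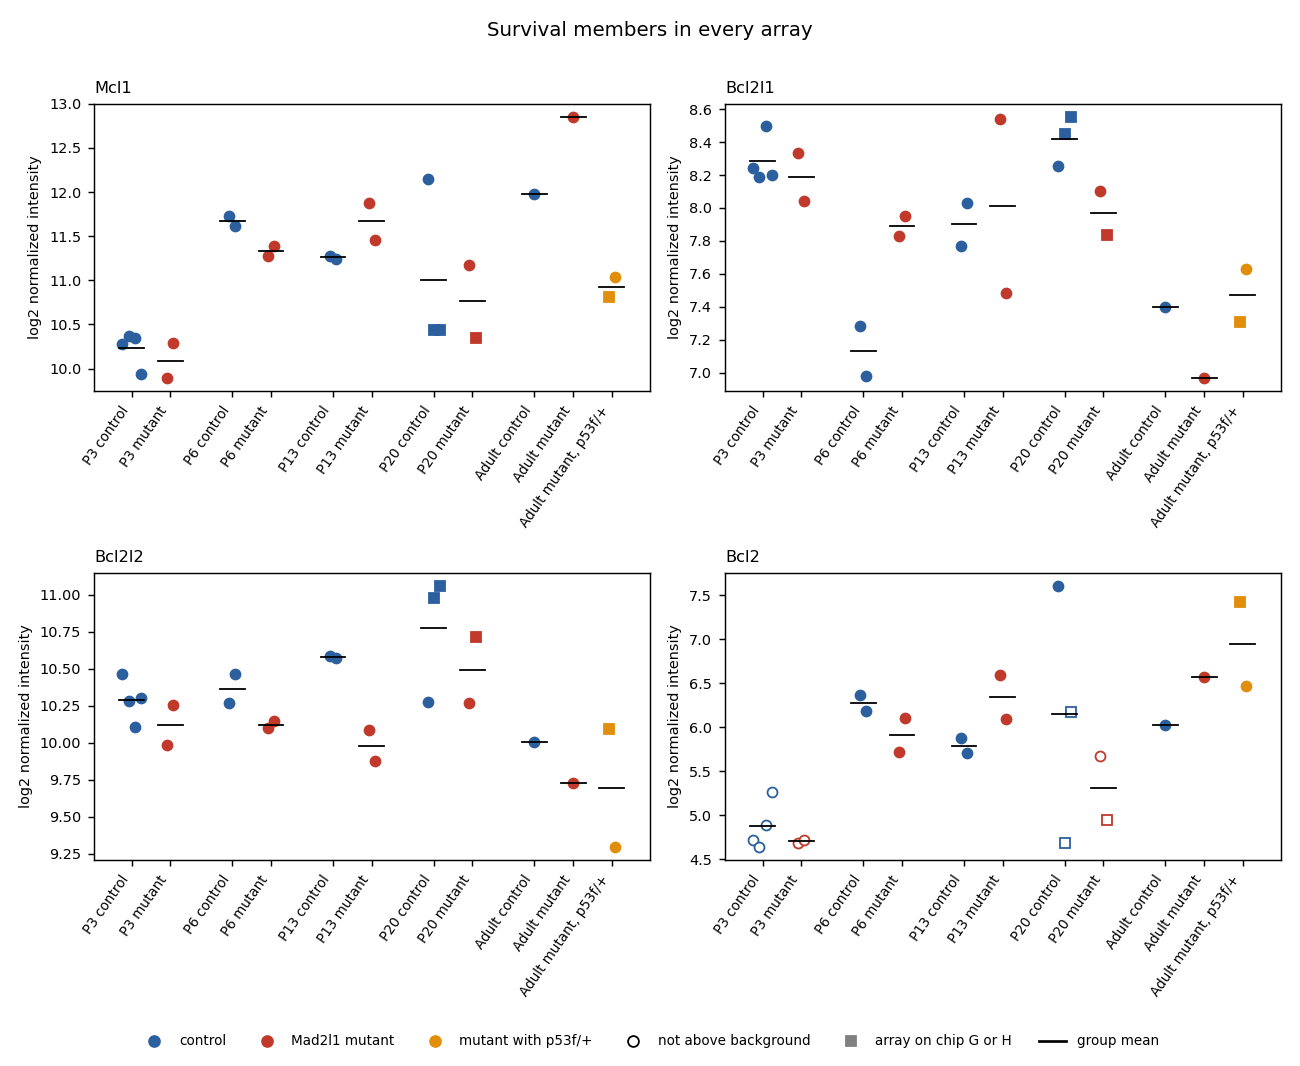
Log2 normalized intensity (vertical axis) of Mcl1, Bcl2l1, Bcl2l2 and Bcl2 in each array by age and genotype, with a bar at the group mean. Over P3 to P20 the mean of Mcl1 is lowest at P3 in both genotypes, and Bcl2 is open in all P3 arrays.

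Several members varied with age in controls. In a moderated F test over the 4 control ages 4 of 9 members passed, namely Bcl2l1, Mcl1, Bid and Bcl2l11, where 44.9% of all genes passed. Age and chip cannot be told apart in these comparisons. Mcl1 rose from a mean of 10.2 ± 0.20 (SD, n = 4) at P3 to 11.7 ± 0.08 (SD, n = 2) at P6, a difference of 1.43 ± 0.38 (log2, SE; limma adjusted p = 0.00924). Over the same step Bcl2l1 fell by 1.15 on the log2 scale (limma adjusted p = 0.00272) and Bid fell by 1.17 (0.00537), where 33.2% of genes passed. Bcl2l1 was again 1.29 higher at P20 than at P6 (limma adjusted p = 0.00194), where 27.5% of genes passed. Bcl2l11 in controls was 1.20 higher at P13 than at P3 (limma adjusted p = 0.0434) and 1.38 higher at P20 than at P3 (0.0140), where 25.5% and 18.2% of genes passed. Bid at P13 lay below its P3 level (-1.01, limma adjusted p = 0.0159).
In mutants no member passed the F test over age, where 24.6% of genes did. Mcl1 was 1.58 ± 0.44 higher at P13 than at P3 in mutants (limma adjusted p = 0.0154), where 26.1% of genes passed. Bid in mutants read 7.90 and 7.32 at P3 and 7.51 and 7.77 at P13, while its P13 control values of 6.81 and 6.40 lay below every P3 control value.

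In adult skin no member passed between the 3 mutants and the control, where 11.8% of genes passed. Bok read 11.67 in the mutant and 11.53 and 11.68 in the p53f/+ mutants against 10.72 in the control (difference 0.90 ± 0.48, not past the threshold). All 3 mutants lay above the lone control, which was assumed to vary like the other groups. Mcl1 passed between the 2 p53f/+ mutants, at 10.81 and 11.04, and the 1 mutant without that allele, at 12.85 (difference -1.93 ± 0.54, limma adjusted p = 0.0237), where 15.4% of genes passed. The lone Mcl1 array was assumed to vary like the other groups, and the call was lost with only the compared groups (adjusted p = 0.154) or without either p53f/+ array (0.0748 and 0.0577), in limma. The adult control read 11.97. The fibroblast list averaged 6.00 and 5.68 in the p53f/+ mutants, 10.5 in the other mutant and 11.3 in the control. With that mean as a covariate the Mcl1 difference turned to 1.66. The covariate nearly coincided with the p53f/+ allele in these mutants, so this fit cannot separate them. A muscle list averaged 11.4 in the mutant without that allele, 5.52 and 5.49 in the p53f/+ mutants and 6.97 in the control. An endothelium and blood list averaged 9.38 in that mutant, 5.22 and 5.95 in the p53f/+ mutants and 8.45 in the control. The part of these cells in the Mcl1 result was not tested. On chip F alone the Mcl1 difference was -1.81.

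Other genes of the pathway were read from 3 lists. Of 13 further Bcl2 relatives 9 were tested, and 4 rose at P6, where 9.47% of all genes rose, 2 at P13, where 9.95% did, 1 at P20, where 4.41% did, and none at P3, with none falling. The list's median difference was 0.07 at P6 and 0.40 at P13 (log2), against -0.04 and -0.01 over all genes. Bcl2l15, a relative also named Bfk and listed under an older symbol in the files, read 10.20 and 9.03 in P6 mutants against 5.76 and 5.60 in controls (difference 3.94 ± 0.64, limma adjusted p = 0.000322). At P13 it read 9.62 and 9.81 in mutants, and neither control, at 5.32 and 5.00, was above background, so that it was at least 20.2-fold higher (limma adjusted p = 0.000114). At P20 it read 10.17 and 9.88 against 5.73, 6.99 and 5.12 (difference 4.08 ± 0.59, limma adjusted p = 0.000347). At P3 the groups overlapped, at 7.67 and 7.89 in mutants and 7.17 to 8.78 in controls. In adult mutants it was at least 13.6-fold higher than in the control, with the mutant at 6.93 and the p53f/+ mutants at 9.13 and 11.18.

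Bcl2a1d, 1 of a cluster of near-identical A1 survival genes known from blood cells, read 8.72 and 7.65 in P6 mutants against 5.21 and 4.82 in controls that were not above background. It was at least 7.60-fold higher (limma adjusted p = 0.00191), and 1.88 ± 0.65 higher at P13 (limma adjusted p = 0.0493). Its paralog Bcl2a1b was 2.93 higher at P6 (limma adjusted p = 0.0157), and whether the probes tell these copies apart was not tested. Bcl2l13 was 0.83 higher at P6 (limma adjusted p = 0.0424). Bcl2a1b and Bcl2l13 are named because their values were seen. Of 10 myeloid markers 4 rose at P6, with list means of 6.43 to 6.90 in mutants and 5.77 to 5.87 in controls. All 6 Langerhans cell markers rose at P6, with list means of 10.4 to 10.6 in mutants and 7.66 to 8.53 in controls. The part of these cells in the Bcl2a1 result was not tested.

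Of 12 tested apoptosome and caspase genes 1 rose at P3, where 0.28% of all genes rose, 1 fell at P6 and 1 at P13, where 13.2% and 10.5% fell, and the list's median difference ran from -0.39 at P20 to 0.17 at P3. Apaf1, the scaffold of the apoptosome, read 8.16 and 8.78 in P3 mutants against 6.76 to 7.43 in controls (difference 1.36 ± 0.34, limma adjusted p = 0.0496). Casp2 was lower by 0.77 on the log2 scale at P6 (-0.77, limma adjusted p = 0.0158), and Casp9, the initiator caspase that Apaf1 recruits, was lower at P13 (-0.98, limma adjusted p = 0.0130). Of 11 tested death receptor genes 3 rose at P6, where 9.47% of all genes rose, and 1 fell at P20, where 5.64% fell, with medians of 0.45 and -0.24 at those ages. Tnfrsf1a, a receptor for tumour necrosis factor, was 1.39 ± 0.41 higher at P6 (limma adjusted p = 0.0221), and its adaptor Tradd 1.31 ± 0.44 higher (0.0432). Casp8, which cleaves Bid and is named after its value was seen, was 1.27 higher at P6 (limma adjusted p = 0.00292). Tnf read 6.99, 8.96 and 8.47 in P20 controls and was not above background in P20 mutants, at least 3.45-fold lower (limma adjusted p = 0.000628). Of 7 tested T and NK cell markers 5 fell at P20, with list means of 6.44 and 7.70 in mutants against 8.71 to 9.17 in controls, and their part in the Tnf result was not tested.

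**Figure D5:**
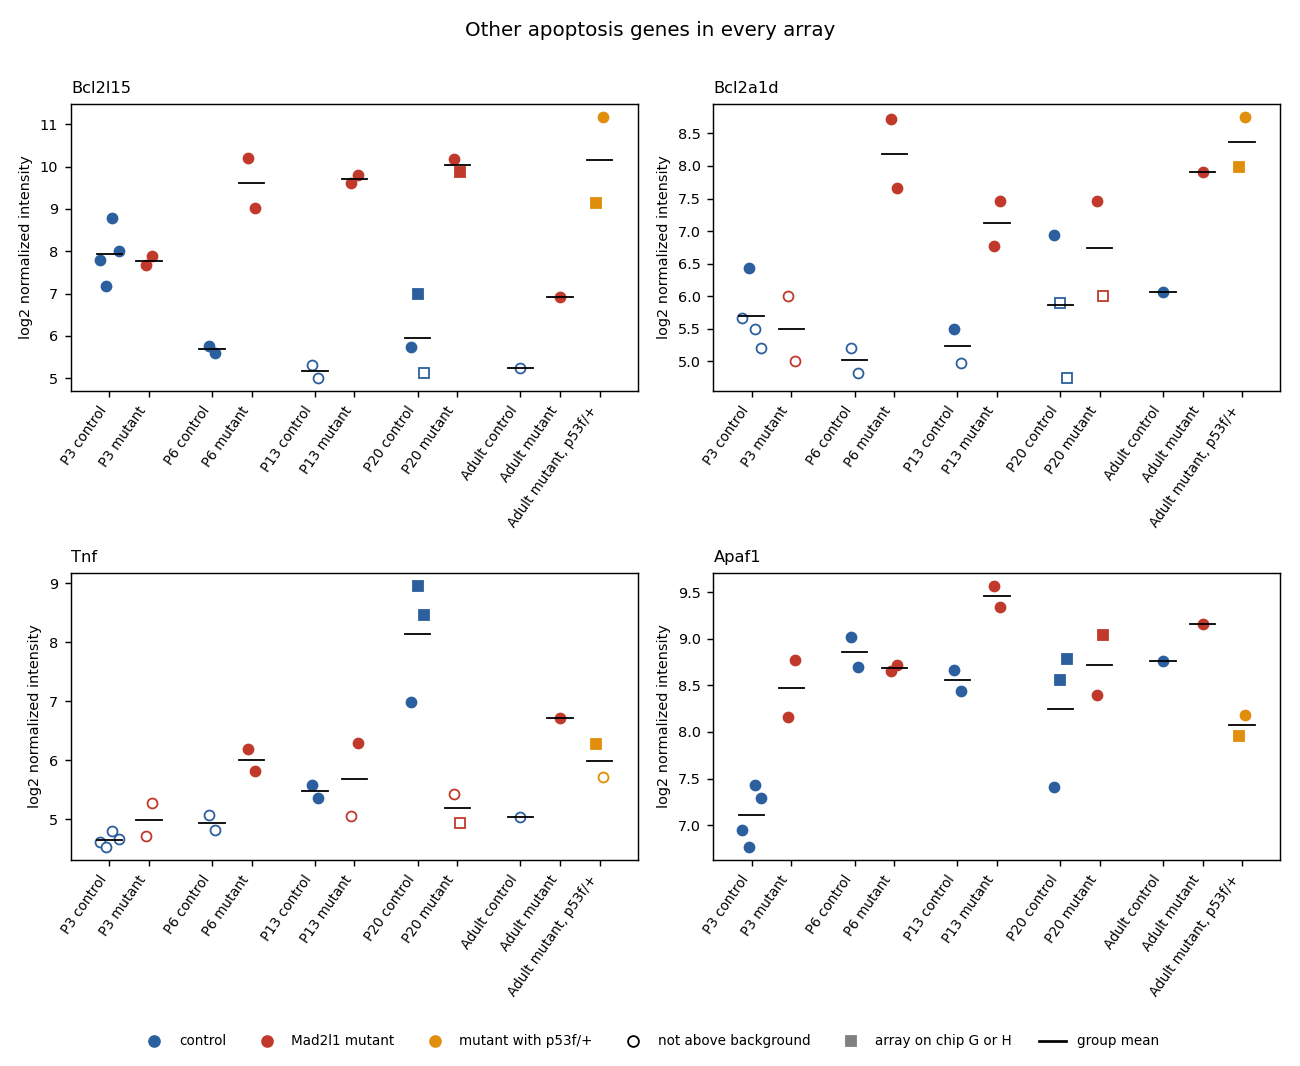
Log2 normalized intensity (vertical axis) of Bcl2l15, Bcl2a1d, Tnf and Apaf1 in each array by age and genotype, with open symbols where the probe was not above background. Bcl2l15 mutants lie between 9.03 and 10.20 from P6 to P20, above all controls of those ages, and overlap with controls at P3.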

How the data were processed

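RNA was hybridised to Illumina BeadChips, 24 arrays in all. The deposited table gives the average bead intensity per probe with a detection value, which per the file headers is a detection p-value and which on some chips holds 1 minus that p-value, a fraction, as the values show. For 1 adult array that column holds no detection values and was not used, and its background and detection were taken from arrays of the same chip. The authors also deposited normalized log2 values, and the submitters' processing notes name limma. Their further steps are not given in the sources used here.

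R 4.3.3 and limma 3.58.1 were used. Background was removed with limma's normexp model, its parameters inferred from the detection p-values. An offset of 16 was added, the arrays were quantile-normalized, and log2 was taken last, in the order of limma's neqc. Log2 before quantile normalization was tried in its place during the work and was set back after limma's own code was read, when its results had been seen. It is reported as an alternative. The 20542 probes that reached a detection p-value below 0.01 on 2 or more arrays were retained, and each gene took its probe of highest mean (14275 genes). limma's moderated test used every array, each group having its own mean, with 3.90 prior and 12 residual degrees of freedom, and p-values were adjusted by Benjamini-Hochberg over all genes, with 0.05 as threshold. The fit was tested on simulated data. The number of arrays limits the precision. The labels do not say that arrays came from separate animals, so p-values measure the spread between these samples, which may be technical.

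Genes named were all 9 members, the 2 largest rises and falls past the threshold in each of 3 other apoptosis lists at each age, and for each member past the threshold the 2 genes with the nearest profile. The members and lists were chosen with earlier results of these data known. A group with no array above background gives only a bound, "at least N-fold", taken against the lowest signal above background on each array. Alternatives covered background correction, offset, filter, probe choice, chip as a block, the arrays included, spread models, a fibroblast covariate and each array left out.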

Additional observations from a re-analysis of the deposited data

Results flagged for a closer look

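The Bok effect at P13 exceeded its effect at P3 by 1.96 ± 0.56 (log2, SE; limma adjusted p = 0.0414), by a direct test of the difference. Both P13 mutants lay above both P13 controls, while the P3 groups overlapped. The sign held in all 40 alternatives that gave this value, with a range of 0.88 to 2.27, and 23 of them passed, the adjusted p running from 0.000558 to 0.252. The lowest value came from the mean of both Bok probes.

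The Bcl2l11 effect at P20 was lower than its effect at P3 (-2.33 ± 0.60, log2, SE; limma adjusted p = 0.0421), again by a direct test. The 2 P3 mutants lay above every P3 control and the 2 P20 mutants below every P20 control. The sign held in all 40 alternatives, from -3.07 to -0.87, and 20 passed, the adjusted p running from 0.00333 to 0.202. With the mean of the gene's probes the difference was -1.12 (limma adjusted p = 0.202), and with the authors' normalized values it was -0.87 (0.0734). Without chips G and H, and so without 3 of the 5 P20 arrays, it was -1.74 (adjusted p = 0.166).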

How the results depend on the processing

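All counts here are of the 9 members past the threshold in limma, unless lists are named, over 45 alternatives, of which each comparison took those that apply to it. No paired analysis was possible because the labels number the samples of an age in 1 run across mutants and controls, so that no number is shared. At P3 the count stayed at 0 in the 19 other settings and with each of 23 arrays left out. At P6 the count of 0 became 1 with the authors' values, the mean of probes, chip as a fixed block or the conflicting array as mutant or as control, 2 with chip as a random block or without chips G and H, 3 with array weights and 4 with only the compared groups, and ran from 0 to 2 with each array left out. At P13 the count of 2 became 1 with the mean of probes or a trended spread and 3, with Bcl2l2 added, with chip as a fixed or random block, array weights or without chips G and H, and ran from 0 to 2 with each array left out. At P20 the count of 0 became 1 on chip F alone, on chip G alone, with chip as a fixed block, without chips G and H or with the fibroblast covariate, 2 with chip as a random block, and ran from 0 to 2 with arrays left out. The mean over P6, P13 and P20 gave 2, but 1 on chips that hold both sides, 0 with the fibroblast covariate, 3 with the authors' values, chip as a random block or array weights (Bcl2l2 added) or without chips G and H (Bcl2 added), and 1 to 4 with arrays left out. Its difference from P3 gave 0, but 1 with no background correction, an offset of 50, detection in 12 arrays, the conflicting array as a mutant, a trended spread or log2 before quantile normalization, 2 with chip blocks, array weights or without chips G and H, and 0 to 2 with arrays left out. Log2 before quantile normalization was added after seeing the data, and under it Bok passed that comparison (1.51, adjusted p = 0.0489 against 0.0519). Adults gave 0, but 1 with chip as a fixed block or without chips G and H. Control ages gave 4, but 8 with array weights, 2 with chip as a random block, 1 with the fibroblast covariate and 2 to 6 with arrays left out. Mutant ages gave 0, but 1 with an offset of 50, the mean of probes, the conflicting array as a control or log2 before quantile normalization, 2 with no background correction, that array as a mutant or a trended spread, 4 with array weights or without chips G and H, and 0 to 4 with arrays left out. The p53f/+ comparison gave 1, but 0 with only the compared groups, only the shared chip or the fibroblast covariate, under which Mcl1 turned to 1.66, and 0 to 1 with arrays left out. Effects compared between ages gave 2, but 0 with no filter, 1 with no background correction, the authors' values, the conflicting array as a control or a trended spread, 4 and 5 with chip as a fixed or random block, 5 with array weights, 9 without chips G and H and 0 to 6 with arrays left out. The 3 lists gave 14 calls, but 23 and 24 with chip blocks, 32 with array weights or without chips G and H, and 8 to 28 with arrays left out. The share of all genes that passed was not counted under each alternative, so these counts cannot be set against the background. The cause of these changes was not tested. Low signal on chip G limits what P20 can show.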

Other observations

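The P3 array whose labels conflict read 9.85 for Bok on its brighter probe, below every P3 mutant and control. It read 7.84 for Bid, 9.83 for Mcl1, 8.53 for Bcl2l1, 9.21 for Bad, 10.25 for Bcl2l2 and 6.76 for Bcl2l11. Bcl2 and Bak1 were not above background in it. Bcl2l15 read 8.60 there.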
